A study of Sus scrofa with 4 samples.

Results

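Iron against control in the dorsal hippocampus of piglets was compared through 2 small RNA libraries, 1 from iron-injected and 1 from untreated animals, out of 4 libraries in the series. The members are the miRNAs of the deposited tables, read from the columns of these 2 libraries. Of 321 annotated pig miRNAs, 251 reached 10 CPM (the miRNA's reads over all annotated reads of its library, times 1e6, after scaling) in at least 1 of the 4 libraries and were measured. The predicted and the conserved miRNA sequences of the other deposited tables were compared in the same way.

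All piglets were newborn Rongchang pigs, a Chinese breed, from 1 litter of 8 with 4 females and 4 males, and the labels give their genotype as wide type. The 4 control piglets received no injection. The other 4, called the oxidative stress group, were given 200 mg of iron dextran, a complex of iron with a sugar polymer, into muscle on days 3 and 4 after birth. The labels do not say whether that dose was given on each day, how many piglets entered a pool, or the age at tissue collection. Tissue of the dorsal hippocampus was mixed within a group before RNA extraction, so each side is 1 pooled library, the spread between piglets was not measured, and the sexes, balanced between the groups, were not kept apart. Every interval below is a 95% counting interval (exact conditional binomial): it covers counting error alone and compares 2 libraries. There are no replicates, so no p-value is given.

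miRNAs are short RNAs, cut from hairpin precursors, that guide Argonaute proteins to messenger RNAs and lower their translation or stability. Target choice rests mainly on the seed, bases 2 to 8 from the 5′ end, so miRNAs with the same seed can share targets. The 3′ end is less fixed: the same miRNA is found in forms that end a few bases earlier or later. In the hippocampus, where memory is formed, miR-9, miR-124 and miR-128 are known neuronal miRNAs, and iron in excess is known to favour the formation of reactive oxygen species.

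The sequences that the comparison turns on follow, 5′ to 3′, as the authors' table of conserved sequences lists them for pig, with the seed in capitals. The first 4 belong to miRNAs that were higher in the iron library, and miR-32 is shown beside miR-363 because they share a seed and differed in opposite directions.
miR-452: aACUGUUUgcagaggaaacuga
miR-1249: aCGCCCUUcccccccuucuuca
miR-192: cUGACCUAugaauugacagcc
miR-363: aAUUGCACgguauccaucuguaa
miR-32: uAUUGCACauuacuaaguugc
The next 3 belong to miRNAs that were lower in the iron library.
miR-135: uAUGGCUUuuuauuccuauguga
miR-19a: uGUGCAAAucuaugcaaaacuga
miR-34c: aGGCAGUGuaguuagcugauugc
The last 6 are abundant miRNAs with a shared seed (miR-99a, miR-100 and miR-99b), and both arms of 1 hairpin beside miR-7.
miR-99a: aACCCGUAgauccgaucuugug
miR-100: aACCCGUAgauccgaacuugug
miR-99b: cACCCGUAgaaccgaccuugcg
miR-7: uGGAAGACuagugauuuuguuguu
miR-30e-5p: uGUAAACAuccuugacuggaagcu
miR-30e-3p: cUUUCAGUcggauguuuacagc

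Reads on annotated miRNAs numbered 12100980 in the control and 11396809 in the iron library. The upper limit for a miRNA without reads, taken as 3 reads, was 0.243 CPM in control and 0.282 CPM in iron. The 10 most abundant miRNAs held 57.1% of the reads in control and 59.7% in iron. Brain miRNAs were abundant: miR-9 stood at 176620 and 180323 CPM and miR-124a at 40449 and 33450.5 CPM, while the liver miRNA miR-122 stood at 7.54 and 7.795 CPM. The epithelial miR-429 had 3 reads in each library. No marker in the files separates dorsal from ventral hippocampus.

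Most miRNAs differed little between the iron and the control library. The median of the 251 log2 ratios was -0.02, and the quartiles were -0.25 and 0.22. Within 1.25-fold of equal lay 155 miRNAs and within 1.5-fold 227. The interval lay above 1 for 95 miRNAs (37.8%) and below 1 for 100 (39.8%), and it included 1 for 56. At this depth the interval excludes 1 even for small ratios, so the calls below rest on size as well. At least 2-fold higher, with an interval excluding 1, were 2 miRNAs (0.797%), and at least 2-fold lower were 0 (0.0%). At least 1.5-fold higher were 9 (3.59%) and at least 1.5-fold lower 15 (5.98%). Scaling to total reads in place of TMM lowers the log2 ratios, and their median, by 0.13, so that log2 ratios between 0 and 0.13 turn negative, some of those counted above 1 in the groups below included; the split of the 2-fold calls is then 1 higher and 3 lower, and that of the 1.5-fold calls 5 and 26. The same 1.5-fold rule gave 4 higher and 10 lower miRNAs in ventral hippocampus.

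**Figure D1:**
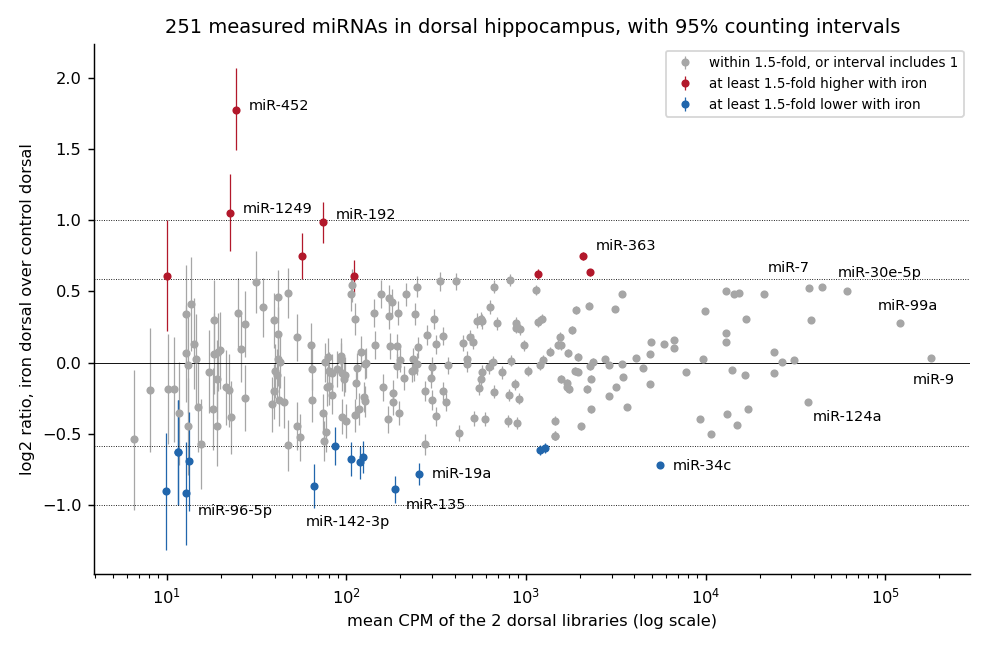
Each point is 1 of 251 measured miRNAs, with its mean CPM in the dorsal libraries on a log axis and its log2 ratio of iron over control on the other; bars are 95% counting intervals and dotted lines mark 1.5-fold and 2-fold. The miRNAs past 2-fold, miR-452 and miR-1249, lie below 100 CPM, while miR-363 and miR-34c are past 1.5-fold at over 1000 CPM.

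The miRNAs that were higher in the iron library came from several loci. miR-452 was first, with 135 reads in control and 399 in iron, or 10.9 and 37.5 CPM, a ratio of 3.43 (2.81 to 4.19). In humans it lies with miR-224 in an intron of the GABA receptor gene GABRE. miR-224 had 4 reads in control and 2 in iron, too few for a ratio. miR-1249 followed, at 14.6 and 30.2 CPM and a ratio of 2.07 (1.72 to 2.502). The pair of miR-192 and miR-194a, known from liver, kidney and gut and as responding to p53, was higher together. miR-192 stood at 49.7 and 98.3 CPM, a ratio of 1.98 (1.79 to 2.19). miR-194a stood at 42.1 and 70.6 CPM, a ratio of 1.68 (1.4995 to 1.88). Their relative miR-215, which stayed under the 10 CPM minimum, had 11 reads in control and 28 in iron.

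Among miRNAs with over 500 CPM, miR-363 had the highest ratio. It is the last member of the X-linked cluster that also holds miR-106a, and stood at 1546 CPM in control and 2601 CPM in iron, a ratio of 1.68 (1.65 to 1.71). miR-758, of the imprinted DLK1-DIO3 locus, stood at 1770.4 and 2745 CPM, a ratio of 1.55 (1.52 to 1.58). The passenger arm miR-221-5p stood at 921 and 1419 CPM, a ratio of 1.54 (1.503 to 1.58). The remaining miRNAs of the 12 highest had ratios of 1.53 for miR-582, 1.52 for miR-7857-3p, 1.497 for miR-874, 1.49 for miR-95 and 1.49 for miR-362. Of these, miR-582 is thinly counted, with 98 and 129 reads, and its interval runs from 1.16 to 2.005.

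The lower end of the order held more miRNAs of middle abundance. miR-135 stood at 242 CPM in control and 131 CPM in iron, 1.85-fold lower (1.74 to 1.98), with 267 and 239 CPM in the ventral libraries, so the iron dorsal library alone lies apart. miR-142-3p, made in blood-forming and microglial cells, stood at 85.9 and 47.1 CPM, 1.83-fold lower (1.64 to 2.03). The more abundant arm of its hairpin, miR-142-5p, stood at 588 and 542 CPM, a log2 ratio of -0.12. In whole tissue, fewer cells of a type and less RNA per cell cannot be told apart, and neither was tested. miR-34c, known from cells with motile cilia and, like miR-192 and miR-194a, as responding to p53, was the most abundant miRNA past 1.5-fold. It stood at 6909.6 and 4194 CPM and was 1.65-fold lower (1.63 to 1.67).

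The list of the miR-17-92 cluster and its paralogs, known for driving proliferation, held 13 measured members. It counts both arms of miR-92b, a relative of miR-92a by seed rather than by cluster, at log2 ratios of -0.01 (miR-92b-3p) and -0.45 (miR-92b-5p). Of the 13, 1 was at least 1.5-fold higher (3.59% over all) and 3 at least 1.5-fold lower (5.98% over all). miR-19a stood at 322 and 187 CPM, 1.72-fold lower (1.63 to 1.82), and miR-18a at 153 and 96.4 CPM, 1.58-fold lower (1.47 to 1.71). miR-18b, of the X-linked paralog, was 1.55-fold lower (1.201 to 2.01), while miR-363 of the same paralog was the highest of the list. miR-19b had a log2 ratio of -0.45, miR-92a of -0.19 and miR-17-5p of -0.11. Of the 13 measured members of this list, 3 intervals lay above and 7 below 1 (37.8% and 39.8% over all), with a median log2 ratio of -0.11 against -0.02 over all measured miRNAs.

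The 12 lowest also held the following. miR-96-5p, of the cluster known from sensory epithelia, had 208 and 95 reads and was 1.89-fold lower (1.48 to 2.43). miR-490-5p had 160 and 74 reads and was 1.87-fold lower (1.41 to 2.49). miR-32 stood at 147 and 90.6 CPM and was 1.63-fold lower (1.503 to 1.76), and miR-1468 was 1.597-fold lower (1.47 to 1.74). miR-376c, miR-18b and the Hox cluster miRNA miR-10a-5p each held under 17 CPM in both libraries. For miR-10a-5p the counts were 174 and 97 reads.

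**Figure D2:**
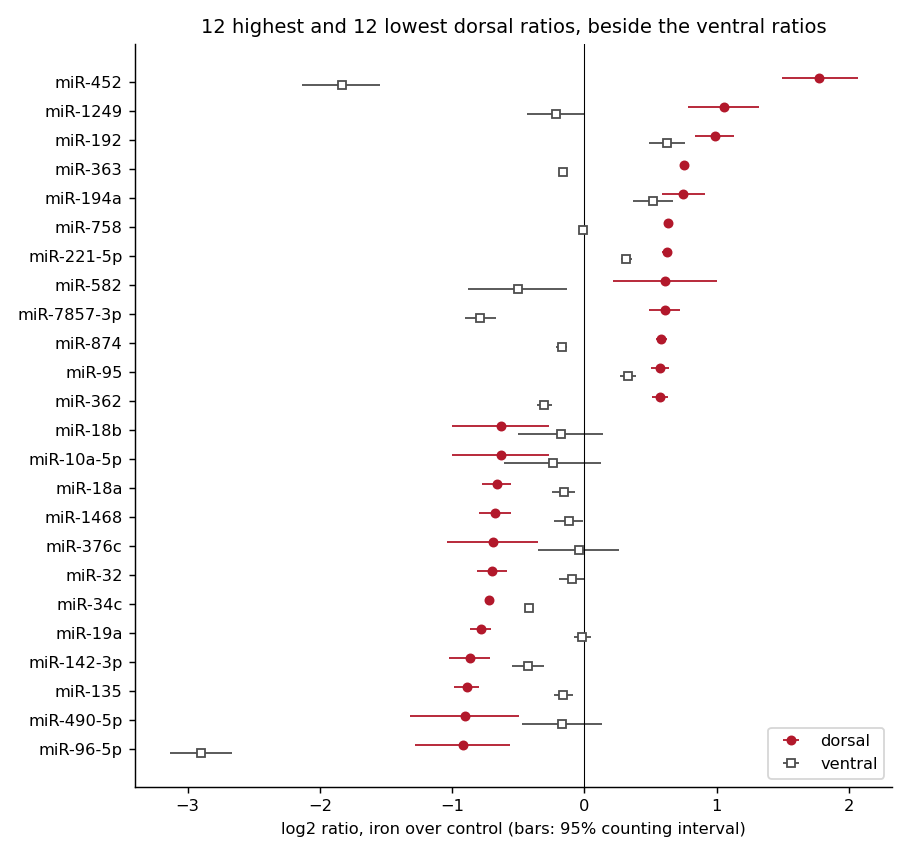
Filled circles give the log2 ratio of iron over control in dorsal hippocampus for the 12 miRNAs with the highest and the 12 with the lowest ratio, open squares the ventral ratio of the same miRNAs, with 95% counting intervals. miR-452 lies at 1.78 in dorsal and -1.83 in ventral, whereas the dorsal values of miR-135 and miR-19a are far below their ventral ones, -0.16 and -0.01.

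The largest differences in CPM lay among abundant miRNAs with small ratios. miR-99a held 11.1% of annotated reads in control and 12.3% in iron, at 108818 and 132006 CPM, a ratio of 1.21 (1.21 to 1.22). miR-30e-5p stood at 50644 and 71692 CPM, a ratio of 1.42 (1.41 to 1.42), and miR-30a-5p at 30761 and 44134 CPM, a ratio of 1.43 (1.43 to 1.44). miR-7, which is bound by the circular RNA CDR1as in neurons, stood at 36339 and 52574 CPM, a ratio of 1.45 (1.44 to 1.45). miR-100 had a ratio of 1.23 and miR-27b-3p of 1.39, which completes the 6 largest gains in CPM.

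The 6 largest losses included 2 neuronal miRNAs. miR-124a stood at 40449 and 33450.5 CPM, 1.21-fold lower (1.204 to 1.21), and miR-128 at 17261 and 12739.7 CPM, 1.35-fold lower (1.35 to 1.36). miR-99b stood at 19123 and 15258 CPM, 1.25-fold lower. miR-374a-5p was 1.42-fold lower, the smooth muscle miRNA miR-143-3p 1.28-fold lower, and miR-34c is given above. The remaining miRNAs of the 10 most abundant lay near 1: miR-9 had a log2 ratio of 0.03, miR-26a of 0.02 and miR-125b of 0.08, all negative with total read scaling, and miR-181a of 0.01.

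miRNAs with a shared seed lay on different sides of 1 in some groups and on the same side in others. A sequence was matched for 240 of the 251 measured miRNAs (95.6%), and 75 of them fell into 27 seed groups with at least 2 measured members of different sequence. In 9 groups some intervals lay above and others below 1, in 5 all lay above and in 5 all below. Over all 251 miRNAs, 37.8% lay above and 39.8% below 1, and whether seed groups differ from unrelated miRNAs was not tested. Summed over its members, 1 group passed 1.5-fold: miR-34c with miR-34a, 1.63-fold lower (1.62 to 1.65), which is nearly all miR-34c, since the p53-responsive miR-34a stood at 90.1 and 87.3 CPM. The sources used here do not say how reads were divided between near-identical miRNAs, so values of single members are uncertain.

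The miR-30 group had the highest summed ratio. Its 5 members with the seed GUAAACA summed to 102061 CPM in control and 141947 CPM in iron, a ratio of 1.39 (1.39 to 1.39). The log2 ratios were 0.52 for miR-30a-5p, 0.50 for miR-30e-5p and 0.48 for miR-30d, but 0.16 for miR-30c-5p and 0.01 for miR-30b-5p. In ventral hippocampus the same 5 values were 0.12, 0.13, 0.17, -0.12 and -0.27.

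In the miR-99/100 group (seed ACCCGUA), miR-99a and miR-100 had log2 ratios of 0.28 and 0.30, and miR-99b of -0.33. The hairpin of miR-99b neighbours those of miR-125a and let-7e. miR-125a went the other way from it, at 2841 and 3962 CPM and a log2 ratio of 0.48. In the let-7 group (seed GAGGUAG), known to drive differentiation, 4 members lay above and 4 below 1. let-7g had a log2 ratio of 0.50, let-7i of 0.36 and let-7f of 0.20. The 2 most abundant, let-7a and let-7c, had -0.07 and -0.08.

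The widest spread within a seed was that of AUUGCAC. miR-363 lay at a log2 ratio of 0.75 and miR-32 at -0.70, with miR-92a at -0.19 and miR-92b-3p at -0.01. miR-27b-3p and miR-27a, which sit in paralogous clusters, lay at 0.48 and -0.33. Of the groups with all members below 1, miR-19b and miR-19a summed to 1.4003-fold lower and miR-130a and miR-130b to 1.42-fold lower. miR-29c and miR-29b summed to 1.27-fold lower, while miR-29a, whose listed pig form gives another seed, had a log2 ratio of 0.38.

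**Figure D3:**
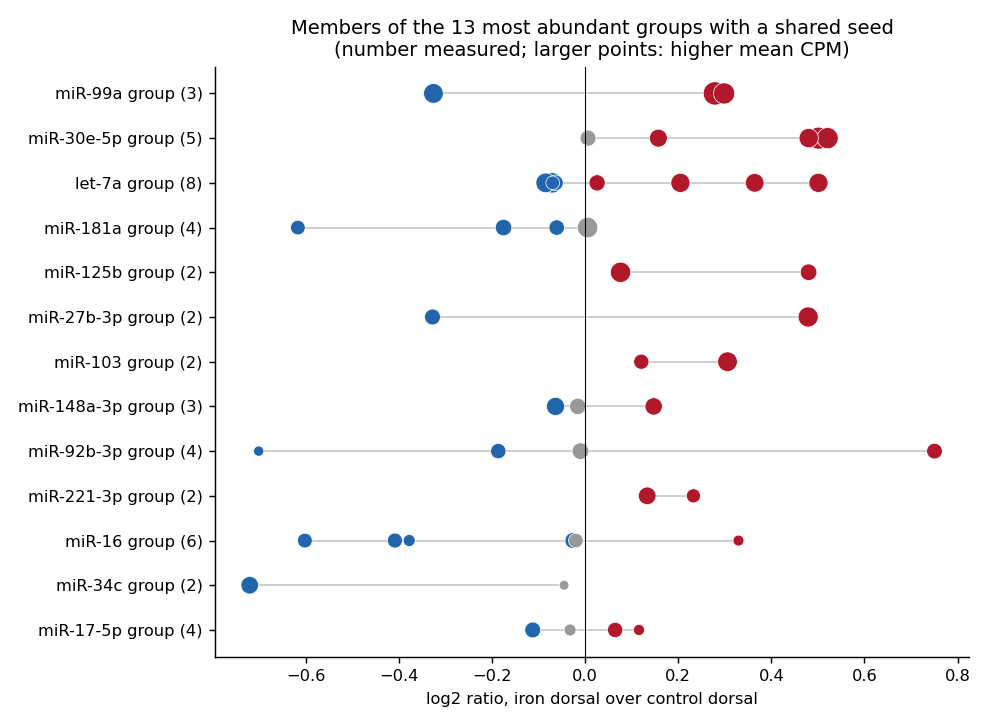
Each row holds the measured miRNAs of 1 seed group, named after its most abundant member, placed by log2 ratio of iron dorsal over control dorsal; red marks intervals above 1, blue below 1 and grey including 1, and larger points stand for higher mean CPM. The miR-30e-5p group reaches from 0.01 to 0.52, and the miR-92b-3p group spans from -0.70 for miR-32 to 0.75 for miR-363.

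Both arms of a hairpin come from 1 precursor, and in 47 pairs both arms were measured. miR-24-3p and miR-30c-5p, each listed with more than 1 hairpin, enter more than 1 pair. In their pairs the other arm comes from only 1 of those hairpins. The arms' log2 ratios differed by a median of 0.32 and by up to 0.78. In 24 pairs both intervals excluded 1: 14 pairs lay on the same side and 10 on opposite sides. Over all 251 miRNAs, 37.8% lay above and 39.8% below 1, and whether arms differ from unrelated miRNAs was not tested. Among the 10 were miR-24-3p with miR-24-2-5p, and miR-30c-5p with miR-30c-1-3p. miR-30e-5p and miR-30a-5p were higher in iron, but their other arms miR-30e-3p and miR-30a-3p had log2 ratios of -0.23 and -0.21. miR-374a-5p lay at -0.51 and miR-374a-3p, at 793 and 962 CPM, at 0.28. miR-142-3p lay at -0.87 and its more abundant arm miR-142-5p at -0.12. miR-221-5p lay at 0.62, and the other arm miR-221-3p at 0.13.

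**Figure D4:**
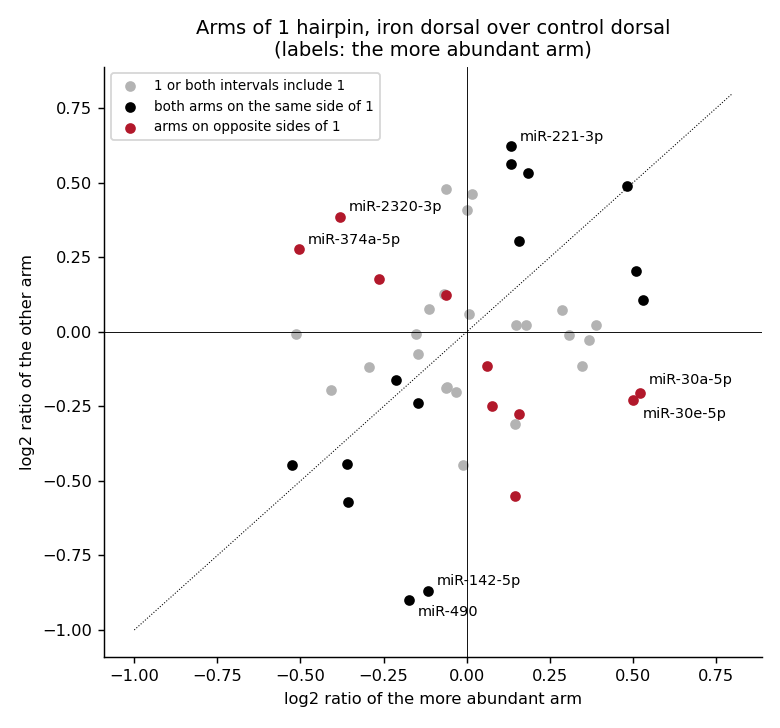
Each point is 1 pair of measured arms that share a hairpin, placed by their log2 ratios of iron dorsal over control dorsal. The more abundant arm is on the horizontal and the other arm on the vertical axis, and the dotted line marks equal ratios. The 10 red points, miR-30e and miR-374a among them, lie in the quadrants where the arms differ in sign.

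Neighbouring hairpins, which can share a transcript, were compared through the RefSeq pig annotation, used for which hairpins lie within 10000 bases of each other. Of the 251 measured miRNAs 228 were matched, and 22 clusters held 2 or more hairpins with measured miRNAs. In 13 clusters members lay on both sides of 1. Over all 251 miRNAs, 37.8% lay above and 39.8% below 1, and whether clusters differ from unrelated miRNAs was not tested. All members lay above 1 in 3 clusters: miR-192 with miR-194a, miR-221 with miR-222, and the group of miR-532, miR-362 and miR-500, where miR-532-3p had a log2 ratio of 0.56 and miR-362 of 0.57. With totals that leave out miR-9 as the scale, miR-221-3p (0.13) and miR-532-5p (0.13) turn negative. All lay below 1 in 1 cluster, miR-181c at -0.62 and miR-181d-5p at -0.06.

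The lists of miRNAs known to mark a cell type, or linked to the treatment, are read against all 251 measured miRNAs, of which 37.8% had an interval above and 39.8% below 1, with a median log2 ratio of -0.02. Of 11 measured neuron-enriched miRNAs, 2 intervals lay above and 7 below 1, with a median of -0.17. miR-137, a regulator of neuronal maturation, stood at 4047 and 3257 CPM (-0.31), and miR-129a-5p at 1705 and 1194 CPM (-0.51). miR-129b carries nearly the same reads as miR-129a-5p and is not a separate measurement; without it 2 of 10 lay above and 6 below 1, with a median of -0.11. The members above 1 were miR-7, at 0.53, and miR-9, which is negative with total reads. The summed level of the list was 285840 CPM in control and 292123 CPM in iron, most of it miR-9.

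Both measured oligodendrocyte miRNAs, which promote myelin-forming cells, lay below 1. miR-219b-3p stood at 10506 and 7976 CPM (-0.40) and miR-338 at 996 and 836 CPM (-0.25). In ventral hippocampus their log2 ratios were 0.44 and 0.41. Of 6 astrocyte-enriched miRNAs 4 lay above and 2 below 1, where 37.8% and 39.8% did so over all, one of the 4 being miR-26a, which is negative with total reads, with miR-23b at 0.40 and miR-29a at 0.38 at one end and miR-29c at -0.39 at the other.

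Markers of other cells that the tissue can hold were summed by cell type, beside miR-34c of ciliated cells given above. The 6 measured immune and microglial miRNAs summed to 1946 CPM in control and 1908 CPM in iron, with 1 interval above and 4 below 1 (37.8% and 39.8% over all). The 3 red cell miRNAs summed to 837 and 861 CPM, with miR-144 at a log2 ratio of 0.34 and miR-486 at -0.26. The 6 vascular arms summed to 21937 and 18871 CPM, with 2 intervals above and 3 below 1 (37.8% and 39.8% over all). Of these, miR-143-3p stood at 14800 and 11542 CPM, miR-126-3p at 4815 and 5028 CPM, and miR-145-5p at a log2 ratio of 0.29. The log2 ratio of miR-126-3p, 0.06, is negative with total reads. The choroid plexus miRNA miR-204 stood at 199 and 164 CPM (-0.28). The 4 measured muscle miRNAs summed to 1185 and 905 CPM, with 3 below 1 (39.8% over all). Most of both sums was miR-499-5p, at 909 and 683 CPM, and the interval of miR-206 included 1. Of the miR-183 cluster, miR-183 stood at 20.1 and 16.1 CPM and miR-182 at 116 and 113 CPM. Of the annotated epithelial markers miR-205 had 41 and 15 reads, under the minimum, as was miR-429. Summed over conserved sequences, the epithelial mir-8 family, which includes miR-429, did reach the minimum. It stood at 18.4 CPM in control and 13.9 CPM in iron, 1.32-fold lower (1.07 to 1.64). No annotated marker of the cell types in this paragraph was at 0 in either dorsal library. The part of any of these cells in the other ratios was not tested.

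The lists closest to the treatment held members in both directions. Of 7 measured miRNAs known from oxidative stress and hypoxia, 2 intervals lay above and 3 below 1, with a median log2 ratio of -0.05, shares near the 37.8% and 39.8% over all. miR-21, induced in many forms of tissue stress, stood at 12794 CPM in control and 17963 CPM in iron, a ratio of 1.404 (1.39 to 1.41). The hypoxia miRNA miR-210, which targets iron-sulfur cluster assembly, stood at 114 and 85.5 CPM, 1.33-fold lower (1.22 to 1.45). Of 16 measured miRNAs linked to iron handling, 8 lay above and 3 below 1 (37.8% and 39.8% over all), with a median of 0.09 that turns negative with total reads. miR-758 and miR-194a, given above, had the list's highest ratios, followed by miR-149 at 0.31 and miR-31 at 0.30, and miR-210 the lowest. miR-210 is on both lists. Of 15 measured miRNAs of the DLK1-DIO3 locus 4 lay above and 9 below 1 (37.8% and 39.8% over all), with a median of -0.17.

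The iron differences of the 2 regions were set side by side; they share no library, but the tissue of both came from the same groups of piglets. Both intervals excluded 1 for 157 miRNAs, of which 80 lay on the same side in both regions (44 above, 36 below) and 77 on opposite sides. Of the 24 miRNAs past 1.5-fold in dorsal hippocampus, 11 lay on the same side in ventral hippocampus, 6 on the opposite side, and for 7 the ventral interval included 1. On the same side were miR-192, at 52.9 and 81.5 CPM in ventral control and iron, miR-194a, miR-221-5p, miR-34c and miR-142-3p.

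miR-7 gave the widest difference among abundant miRNAs. Beside its dorsal values of 36339 CPM (control) and 52574 CPM (iron) stood ventral values of 49733 and 28702 CPM. The log2 ratio was 0.53 in dorsal and -0.79 in ventral hippocampus, so the region with the higher level differed between control and iron. miR-452 did the same at low levels, with 10.9 and 37.5 CPM in the dorsal pair and 34.6 and 9.73 CPM in the ventral pair, control first. miR-1249 stood at 14.6 and 30.2 CPM in the dorsal and 29.7 and 25.5 CPM in the ventral pair, so control dorsal was the lowest of the 4 libraries. For miR-128 the log2 ratios were -0.44 in dorsal and 0.35 in ventral. None of these differences could be tested with 1 library a group.

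Summed over conserved families, 188 of 278 families were measured, with 75 intervals above 1 (39.9%) and 80 below (42.6%); 2 were at least 2-fold higher (1.06%) and 3 at least 2-fold lower (1.6%). The higher families were mir-452, at a ratio of 3.37 (2.72 to 4.1996), and mir-1249, at 2.11 (1.6997 to 2.62), which count the same miRNAs as above. The mir-375 family, known from hormone-secreting cells, stood at 101 and 42.4 CPM and was 2.37-fold lower (2.13 to 2.65). The mir-216 family, known from pancreas, stood at 20.003 and 8.61 CPM and was 2.32-fold lower (1.82 to 2.99). Annotated miR-216, under the minimum, went the same way with 90 and 19 reads. The mir-1271 family stood at 104 and 31.7 CPM, 3.29-fold lower (2.91 to 3.72), but annotated miR-1271 had 14 and 6 reads, so the tables do not count the same reads under that name.

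At least 1.5-fold were 7 families higher (3.72%) and 16 lower (8.51%), of which those named here were chosen after their values were seen. The mir-449 family, which shares its seed with miR-34c and is known from the same ciliated cells, stood at 168 and 92.1 CPM and was 1.83-fold lower (1.69 to 1.97). The mir-34 family was 1.67-fold lower (1.65 to 1.69). The mir-33 family, known from cholesterol transport, was 1.85-fold lower (1.68 to 2.03), and mir-592 1.94-fold lower (1.67 to 2.27). The mir-135, mir-32, mir-96, mir-363, mir-192 and mir-194 families repeated the annotated miRNAs of those names in direction.

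Of the predicted miRNAs, which the authors list by number in a table of their own, 112 were measured, with 36 intervals above 1 (32.1%) and 46 below (41.1%); 4 were at least 2-fold higher (3.57%) and 4 at least 2-fold lower (3.57%). In 7 pairs both numbers had identical reads in all 4 libraries; counted once, 105 were measured, 34 above and 43 below 1, and no pair passed 2-fold. By far the most abundant, predicted miRNA 467, stood at 14145 and 23396 CPM, with a ratio of 1.65 (1.64 to 1.66). In ventral hippocampus it stood at 19798 and 16159 CPM. Predicted miRNAs 2 and 3, next in abundance, had ratios of 1.21 and 0.8602. Number 318 stood at 119 and 47.9 CPM, 2.48-fold lower (2.24 to 2.75). Both strands of number 5 were lower, the star strand 2.14-fold (2.01 to 2.28) and the mature strand 1.82-fold (1.73 to 1.92). The other 6 past 2-fold held under 31 CPM in both libraries: numbers 489, 389, 639 and 498 were higher, and numbers 419 and 515 lower.

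A difference that the annotated table does not show lay between conserved sequences of different length. The lengths of the reads themselves were not examined. The table of conserved sequences lists reference sequences named after many species. Some begin alike and end at different bases, with an estimated value for each, and are called forms of 1 miRNA here. The longer sequences below bear the names of other species, and those given as miR-99a and miR-100 bear another miRNA name too. In the pairs below, shown as abundant examples chosen after their values were seen, the capitals mark the bases that the longer form has in addition.
miR-99a, 20 bases: aacccguagauccgaucuug
miR-99a, 23 bases: aacccguagauccgaucuugUGA
let-7g, 21 bases: ugagguaguaguuuguacagu
let-7g, 22 bases: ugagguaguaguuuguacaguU
miR-100, 19 bases: aacccguagauccgaacuu
miR-100, 24 bases: aacccguagauccgaacuuGUGUU

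The short miR-99a form had 24.1 reads per 100 reads of the long form in control dorsal and 35.8 in iron dorsal. The ventral libraries lay between them, with 30.97 in control and 28.1 in iron. Its iron over control ratio was 1.83 for the short and 1.23 for the long form. For let-7g the short form had 20.4 and 33.05 reads per 100 in control and iron dorsal, and ratios of 2.07 and 1.28. For miR-100 it had 11.7 and 26.2 reads per 100, and ratios of 2.49 and 1.11. So the ratio of these miRNAs depended on the form counted.

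Most nested pairs lay the same way. In 259 pairs of nested sequences with at least 100 reads in every library, from 130 named families, the ratio of the shorter to the longer form was higher in the iron library in 205 (79.2%), with a median shift of 0.31 on the log2 scale and quartiles of 0.02 and 0.58. In ventral hippocampus it was higher with iron in 91 (35.1%), with a median of -0.04. Both dorsal libraries lay apart from the ventral ones: control dorsal less control ventral had a median of -0.16, with 68 pairs above 0, and iron dorsal less iron ventral a median of 0.17, with 206 above 0. Where the forms were 3 or more bases apart, 66 of 77 pairs had a positive dorsal shift, with a median of 0.48. With at least 1000 reads in every library, 120 of 145 pairs did, with a median of 0.29. miR-9 had 4.98 and 7.34 short reads per 100 long ones, and miR-7 2.45 and 3.65. miR-99b differed little, with 125 and 128, and miR-30a went the other way, with 6.19 and 5.37.

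Over the 1062 conserved sequences with at least 100 reads in every library, the median log2 ratio of iron dorsal over control dorsal was 0.49 for the 24 sequences of 19 bases, 0.29 for the 80 of 20 bases, 0.13 for the 229 of 21 bases, -0.01 for the 375 of 22 bases and -0.08 for the 189 of 23 bases. It did not go on falling beyond that, with 0.04 for the 84 sequences of 24 bases and -0.02 for the 63 of 25 bases, and the 3 of 26 bases had 0.42. These sequences include the pairs above. The ventral medians from 19 to 25 bases lay between 0.02 and 0.05. This comparison was chosen after values had been seen, many of these values are fractional, so that sequences of a pair may share reads, and the pairs are not independent. Its part in the ratios of the annotated miRNAs was not tested. Over the 240 miRNAs with a matched sequence, Spearman's rho of the annotated dorsal log2 ratio was 0.07 with the listed length and 0.13 with GC content, given as a description.

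**Figure D5:**
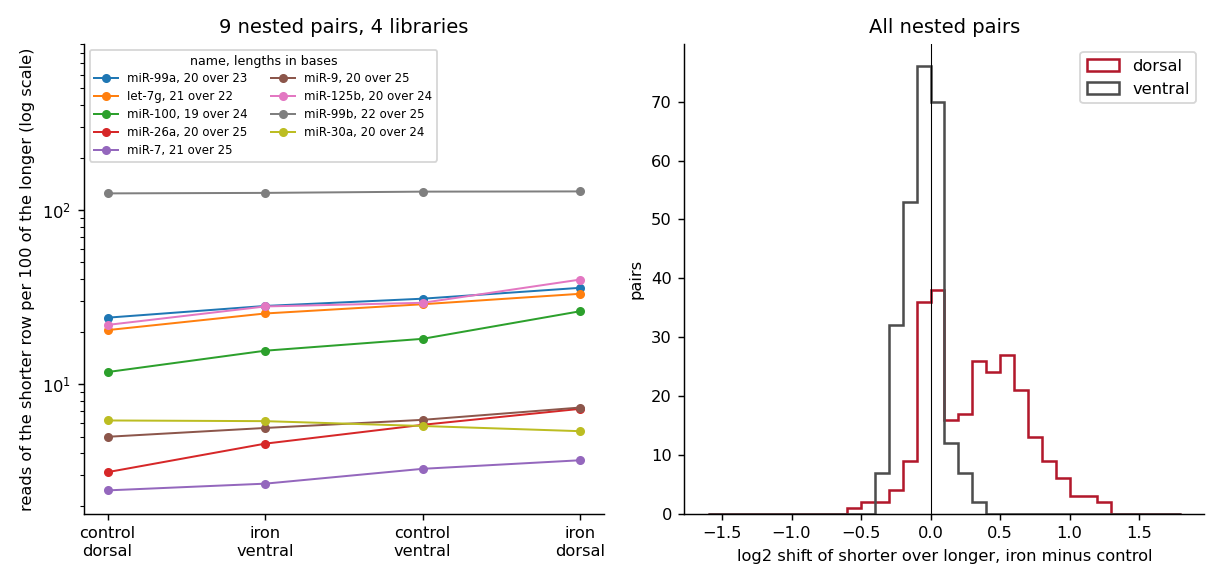
The left panel gives, for 9 pairs of nested sequences, the reads of the shorter per 100 reads of the longer form in each library on a log axis, with the libraries ordered by the values of most pairs; the right panel counts all 259 pairs by the log2 shift of that ratio with iron, in dorsal and in ventral hippocampus. The dorsal shifts have a peak near 0 and a second one near 0.5, while the ventral shifts lie close to 0.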

How the data were processed

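Small RNA of pooled hippocampus was sequenced, 1 library per region and treatment. The authors deposited 3 tables (annotated, predicted and conserved miRNAs) whose read columns hold estimated counts, many of them fractional (76.38% of annotated values whole in control dorsal and 75.77% in iron dorsal). Beside them the authors deposited RPM, reads scaled to a library total that works out at 16943230 reads for control dorsal and 15748224 for iron dorsal. Per the submitters' processing notes, cutadapt 1.2.2 and the pig builds Sscrofa 10.2 and susScr 3 were used; the aligner, counter and miRNA release are unknown here. Another 8 per-sample columns were not used.

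Values were rounded to whole reads. Identical rows of miR-9 (3), miR-218 (3) and miR-490 (2), equal within 0.1%, were merged, leaving 321 of 326. Libraries were scaled by TMM (edgeR 4.0.16, R 4.3.3) over all 4 libraries, and miRNAs with at least 10 CPM in 1 library were kept. The predicted table used the same scaling and the conserved families their own. Ratios carry exact conditional binomial (Clopper-Pearson) intervals at the 95% level (scipy 1.17.1, Python 3.11.15). Amplified reads are not independent molecules, so intervals and the floor of 3 reads cover counting error only. A call needed a 2-fold or 1.5-fold ratio and an interval excluding 1. Named miRNAs were those past 2-fold, the 12 highest and 12 lowest, the 10 most abundant, the 6 largest gains and losses in CPM, list members, and examples of seeds, arms and clusters chosen after values were seen. Predicted miRNAs and families past 2-fold were named too, with the 3 most abundant predicted ones. Members, lists and rules were chosen with earlier results of these data known. The length of conserved sequences, identical predicted rows and the neuron list without miR-129b were compared after values were seen. The scripts were tested on simulated data. Sequences are those of the deposited conserved table matched by number, letter and arm. RefSeq (Sscrofa11.1) served only to find neighbours within 10000 bases. Alternatives were total counts, DESeq2 1.42.0 size factors, the authors' RPM, TMM of the dorsal libraries, totals without miR-9, other minimums, and unmerged rows.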

Additional observations from a re-analysis of the deposited data

Results flagged for a closer look

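The following miRNAs had iron over control ratios on opposite sides of 1 in the dorsal and the ventral hippocampus, with the log2 ratios at least 1 apart and both intervals excluding 1; with 1 library a group the difference was not tested. The dorsal log2 ratio less the ventral one was 3.61 in the case of miR-452. It came to 1.39 for miR-7857-3p, with 87.6 and 133 CPM in dorsal control and iron against 120.4 and 69.8 CPM in the ventral pair. For miR-7 it was 1.33, for miR-1249 it was 1.27 and for miR-582 it was 1.11. For miR-708-5p it was 1.12, with 544 and 786 CPM in the dorsal pair and 753 and 501 CPM in the ventral pair. miR-1, a muscle miRNA, differed the other way, by -1.02, with 221 and 173 CPM in the dorsal and 123 and 196 CPM in the ventral pair. The median log2 shift of shorter over longer conserved sequences with iron was 0.313 in dorsal and -0.045 in ventral hippocampus, 0.358 apart. Sequences of a pair may share reads, and the difference was not tested.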

How the results depend on the processing

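No paired analysis was possible because each group holds 1 library, and for the same reason no library could be left out. Scaled to total counts, 1 annotated miRNA was at least 2-fold higher and 3 lower (miR-135, miR-96-5p and miR-490-5p), and 5 and 26 passed 1.5-fold, against 2, 0, 9 and 15 with TMM. With the authors' RPM the 4 counts were 1, 2, 5 and 25, and with totals without miR-9 they were 1, 5, 5 and 32. DESeq2 size factors and TMM of the dorsal libraries left all 4 counts within 1.5 times. Without a minimum 3 annotated miRNAs were 2-fold lower, and with a minimum of 100 CPM 0 were 2-fold and 4 were 1.5-fold higher, since fewer miRNAs enter. For conserved families the 2-fold counts of 2 higher and 3 lower became 1 and 5 with total counts and 4 and 5 without a minimum, and 0 were higher at 100 CPM. For predicted miRNAs, 4 and 4 became 2 and 7 with total counts, 26 and 15 without a minimum, and 0 and 2 at 100 CPM. Of 86 named annotated miRNAs, 5 with an interval excluding 1 changed sign in 1 to 3 of 6 scaling or merging alternatives. With total counts, the authors' RPM and totals without miR-9, in that order, the log2 ratios were -0.0964, -0.0773 and -0.117 for miR-9, -0.110, -0.0909 and -0.130 for miR-26a, and -0.0502, -0.0312 and -0.0705 for miR-125b. With totals without miR-9 they were -0.0133 for miR-221-3p and -0.0117 for miR-532-5p. Some miRNAs named above were not among the 86. Of these, miR-126-3p (0.06), miR-106a (0.12) and let-7e (0.03) had intervals above 1 and turn negative with total counts, which lower every log2 ratio by 0.126. Alternatives added after the data were seen gave 72 (total counts) and 74 (DESeq2) miRNAs on opposite sides in the regions, against 77, and 13 and 10 arm pairs, against 10. Pooled libraries leave the spread between piglets unmeasured.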

Other observations

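Without a minimum level, 3 more annotated miRNAs passed 2-fold downward with an interval excluding 1, namely miR-216, miR-205 and miR-676-5p, and 1 more, miR-215, passed it upward. miR-216, which is known from pancreas, had 90 reads in control dorsal and 19 in iron dorsal, while the ventral libraries held 117 and 120, so the iron dorsal library was the low one. miR-205, known from epithelia, had 41 and 15 reads, with 32 and 24 in the ventral pair.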
